A study of Schizosaccharomyces pombe with 2 samples.

Results

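The locus described here is 30000 bases of the right arm of chromosome II of fission yeast (Schizosaccharomyces pombe), made up of 3 bins of 10 kb that start at 2660001, 2670001 and 2680001. It was chosen by its measured contact with the ends of chromosome I, which was 2 times or more the level of neighbouring bins, so that contact is given as a description and supports nothing. The 3 bins are 3 of 1258 in the map and 3 of the 1218 that hold values. They carry 8 member genes of 5113 protein-coding genes. These are hsp16, ric8, mic60 and fnx2 in the first bin, rad13 and fma1 in the middle bin, and syf2 and smf1 in the last. In all, 15 protein-coding genes and 14 long non-coding RNA genes touch the bins.

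The contacts come from Hi-C, in which fixed chromatin is cut, re-ligated and sequenced so that each ligated pair reports 2 stretches of DNA that lay close together. Both samples of the series are biological replicates of 1 strain, sap1-1, a mutant of the gene for the essential DNA-binding protein Sap1. Cells grew in rich medium at 26 °C and were held at 33 °C for 6 hours, then fixed with 3% formaldehyde for 20 min at the lower temperature. There is 1 map, whose header carries the tag R1 and which may hold replicate 1 alone, and no control strain, so no value is a difference between strains or temperatures and none has a replicate error. The map held 37526865 reads recovered from the corrected values. The 3 bins held 64565, 49209 and 59862 reads, beside a median of 58358 over the 392 arm bins of chromosome II. Bins within 200 kb of an end or 100 kb of the middle of a centromere are not counted as arm bins. Brackets after a value are 95% Poisson intervals of its reads. They cover counting error only and leave out the error of the level it was divided by.

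In growing fission yeast the centromeres gather at the spindle pole body, and the chromosome ends sit apart from them at the nuclear envelope, where telomeres cluster. The ends of chromosomes I and II are packed as heterochromatin, while those of III border the ribosomal DNA. An arm gene in contact with those clusters is therefore far along the DNA from its partner and near it in the nucleus.

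The members have unrelated roles. Hsp16 is a small heat shock protein that keeps unfolded proteins from aggregating, and its gene is induced by heat. Ric8 is known in animals as an activator of G protein alpha subunits. Mic60 holds the cristae junctions of mitochondria, and Fnx2 is a transporter of the vacuole membrane that moves amino acids. Rad13 is the nuclease that cuts DNA on the 3′ side of a lesion in nucleotide excision repair, the counterpart of human XPG. Fma1 removes the first methionine from new proteins. Syf2 is a splicing factor, and Smf1 is a protein of the Sm ring of spliceosomal RNA particles.

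Of the 8 members, 6 lie on the minus strand, and fma1 and smf1 on the plus strand. In the map's build, ASM294v2, and by RefSeq's annotation of chromosomes of the same lengths, hsp16 (SPBC3E7.02C) spans chrII:2660139-2660992, ric8 2662488 to 2664752, mic60 2665294 to 2667413 and fnx2 2668034 to 2670078. In the next bins rad13 (SPBC3E7.08C) spans 2672990 to 2676569, fma1 2678791 to 2680283, syf2 2683836 to 2684840 and smf1 2685638 to 2686887. The genes fnx2 and fma1 reach into the next bin.

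HindIII, the enzyme used, cuts at AAGCTT, and only the pieces between its sites can be told apart. The locus has 15 sites, with 9 in the hsp16 bin and 3 in each of the others, and the 16 pieces touching it are 22 to 5787 bases long. No site lies in hsp16, syf2 or smf1. The piece that carries hsp16 is 5037 bases long, and its left site lies in the bin before the locus, inside the coding sequence of fab1 and an exon of prp17 on the other strand. Its right site lies in the coding sequence of ric8. The genes syf2 and smf1 share a piece, from the site at 2683432 to that at 2687334, so their contacts cannot be separated. The sites that bound the hsp16 piece are shown on the plus strand because every read that reports on hsp16 was ligated at them, with the HindIII site in capitals.
Left site, chrII:2658155-2658184: ttttcggaagaaAAGCTTttaaaaaatttg
Right site, chrII:2663192-2663221: aaaaggcaacggAAGCTTttacccttttga

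The stretch upstream of hsp16 lies in the bin that met the ends of I most among the 3 of the locus. Its 250 bases before the annotated gene start, chrII:2660993-2661242 on the minus strand, carry no annotated gene. Heat shock elements, bound by the heat shock factor, are built from GAA blocks in alternating direction. One copy of GAANNTTC is present, shown in capitals, and no copy of TTCNNGAA, each motif being its own reverse complement. GAANNTTC was present in 9.49% of 5112 upstream windows of that length, and either of the motifs searched in 16.7%.
hsp16 upstream: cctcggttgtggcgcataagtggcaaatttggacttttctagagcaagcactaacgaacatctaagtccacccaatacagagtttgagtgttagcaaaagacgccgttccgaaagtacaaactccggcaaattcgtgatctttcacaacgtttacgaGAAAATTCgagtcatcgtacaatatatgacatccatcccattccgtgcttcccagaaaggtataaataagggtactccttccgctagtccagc

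Fission yeast telomeres are made of short repeats of the type GGTTACA, so these letters were searched for. The 30000 bases held 1 copy of GGTTACA, searched on both strands, and 54.7% of the 1068 arm bins held at least 1 copy. It lies on the minus strand in the coding sequence of lac1 and in the last exon of smf1, past the coding part of smf1. It is shown with the repeat in capitals.
Telomere repeat copy, chrII:2686714-2686743: attcttcgaattGGTTACAgagcttttaca
The part of such letters in the contacts was not tested. None of the 29971 stretches of 30 bases in the locus occurred in the outer 100 kb of any of the 3 chromosomes, on either strand, and 7 of 29981 stretches of 20 bases did.

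Chromosomes I and II met the locus at all 4 of their ends, and this contact peaked over hsp16 and rad13. Each window is the outermost 5 bins with values at an end, and fold is the summed corrected contact divided by the running median of the other bins within 100 kb on each side. The hsp16 bin met the left end of I at 3.91-fold (3.46 to 4.41, 271 reads) and the right end at 3.02-fold (2.52 to 3.59, 127 reads). The rad13 bin had 3.29 (2.81 to 3.83, 169 reads) and 2.45 (1.97 to 3.03, 87 reads), and the bin of syf2 and smf1 had 2.19 (1.84 to 2.59, 137 reads) and 1.85 (1.46 to 2.31, 77 reads). The order of the bins was thus the same at both ends of I, although the intervals of the hsp16 and rad13 bins overlap at each. These values chose the locus, and among arm bins of II 2-fold was reached by 4.08% at the left end of I, 2.81% at the right end and 2.81% over both. With both ends of I summed, the 3 bins had 3.54, 2.94 and 2.05, just above the threshold in the last case. The first bins outside it were 2700001 of II, with str1 and mrpl39, and 300001 of II, with mug89 and nrs1, each at 1.97.

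The ends of chromosome II itself were not part of the rule, and the 3 bins had the 3 highest folds with them among the arm bins of their chromosome. These ends meet the ends of I in this map, so the values are not independent of those above. The hsp16 bin had 459 reads with the ends of II and a fold of 3.77 (3.43 to 4.13). The rad13 bin had 365 reads and 3.93 (3.54 to 4.36). The bin of syf2 and smf1 had 326 reads and 2.78 (2.49 to 3.10). Among the 392 arm bins of II these had ranks 2, 1 and 3, and 3.57% of those bins reached 2-fold. All 3 locus bins reached it with both I and II, as 1.79% of arm bins did. The intervals of the hsp16 and rad13 bins overlap, and that of the last bin lies below both.

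The locus is 1865 kb from the right end of II and 2675 kb from the left end, with the centromere in between in the latter case. The hsp16 bin met the right end of II at 4.29-fold (3.78 to 4.86, 249 reads) and the left end at 3.14 (2.73 to 3.59, 210 reads). The rad13 bin met the right end at 3.79 (3.25 to 4.39, 176 reads) and the left end at 3.83 (3.31 to 4.42, 189 reads). For the rad13 bin the far end across the centromere and the near end had overlapping intervals, relative to neighbouring bins. The bin of syf2 and smf1 had 2.59 (2.20 to 3.03) and 2.78 (2.38 to 3.23). With the left end of II alone 3.32% of arm bins of II reached 2-fold, and with the right end 4.08%.

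Over the 3 bins together, the right end of II had the highest fold, 3.56 (3.27 to 3.86), then came the left end of II at 3.25 (2.99 to 3.53) and that of I at 3.13 (2.88 to 3.40). Neighbours in this order have overlapping intervals. The right end of I was lowest of the 4 at 2.44 (2.17 to 2.74), with an interval below those of the others. Blank bins put the windows at unlike distances from the ends, so this order holds for these windows only. From 50 to 100 kb in, over bins flanking the locus, the order differed. There the right end of II had 3.81 (3.51 to 4.12), the right end of I 3.95 (3.63 to 4.30), the left end of II 4.37 and that of I 4.77.

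The ends of III did not share this contact. The hsp16 bin met them at 1.02-fold (0.811 to 1.26, 84 reads), the rad13 bin at 0.992 (0.762 to 1.27, 63 reads) and the bin of syf2 and smf1 at 1.10 (0.881 to 1.36, 87 reads). Over the 3 bins the fold was 1.01 (0.846 to 1.19) with the left end and 1.06 (0.854 to 1.29) with the right end. No arm bin of II, or 0% of 392, reached 2-fold with both ends of III or with the left one, and 0.765% did with the right one. These upper bounds lie below the folds of the same bins with both ends of I and with both ends of II.

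**Figure D1:**
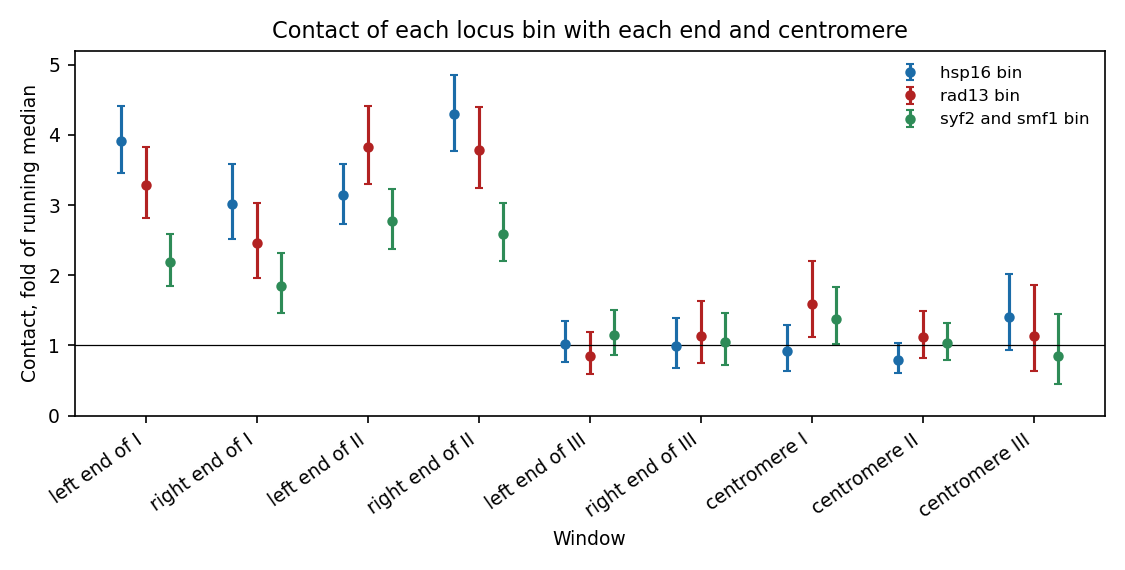
Contact of each locus bin with each chromosome end and centromere, as fold of the running median (vertical axis) by window (horizontal axis), with bars for 95% Poisson intervals. All 3 bins lie above 1 at the 4 ends of I and II, from 1.85 to 4.29, and between 0.854 and 1.15 at the ends of III.

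Contact with the centromeres was lower than with the ends of I and II. The locus met centromere I at 1.30-fold (1.07 to 1.56, 116 reads), an interval above 1, and centromere III at 1.13 (0.850 to 1.46, 56 reads). It met the centromeres of I and III together at 1.14-fold (0.977 to 1.33, 172 reads), and the centromere of II, 1053 kb away on the same chromosome, at 0.981 (0.837 to 1.14, 164 reads). The highest value was that of the rad13 bin with centromere I, 1.59 (1.12 to 2.21), from 36 reads. That of the bin of syf2 and smf1 with centromere I was 1.38 (1.02 to 1.84, 47 reads), while the hsp16 bin had 0.921 (0.634 to 1.29, 33 reads). None of the 3 locus bins reached 2-fold with a centromere. Among arm bins of II 1.02% did with centromere I, 0.255% with II, 1.28% with III and 1.02% with I and III together. A window of 20 kb to each side left 1 bin and 8 reads and gave 2.56 (1.11 to 5.05), a wide interval that lies above 1.

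In level, the contact was modest beside that between the ends. Arm bins of different chromosomes shared a mean corrected signal of 12.5 per pair of bins. At the ends of I the locus shared 46.2 on the left and 24.4 on the right, and at the ends of II 61.8 on the left and 54.2 on the right. Those with the ends of II are pairs within 1 chromosome, which the mean over different chromosomes does not match, and their folds over neighbouring bins are those given above. The ends of I and II shared 252 to 585 with each other. With the ends of III the locus shared 0.839 and 0.722 times the mean of arm bins. Of its signal with other chromosomes, the hsp16 bin gave 4.38% to the 10 end bins of I, the rad13 bin 3.51% and the last bin 2.37%, beside a median of 0.999% over arm bins of II.

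The raised contact formed a peak reaching past the 3 bins on both sides. With the ends of II the fold rose from 1.48 at 2630001 through 1.80 at 2640001 to 2.51 at 2650001, the bin of the splicing gene prp17 and the lipid kinase gene fab1. With the ends of I the same bins had 1.09, 1.32 and 1.81. The hsp16 piece starts in bin 2650001, so part of its reads count there. On the other side the fold fell to 1.59 with the ends of II at 2690001 (kin1, emp46) and stood higher again at 2700001, at 2.27. With the ends of I these bins had 1.69 and 1.97. Bin 2700001 holds str1, a siderophore iron transporter gene, and mrpl39, a gene for a mitochondrial ribosomal protein.

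Beyond 50 kb from the middle bin the fold was no longer raised as at the locus. The 32 such bins had 0.652 to 1.44 with the ends of I (median 0.883) and 0.707 to 1.42 with the ends of II (median 0.921). None of them reached 1.5. The medians lie below those of all arm bins of II, 0.990 and 0.981. For bins within 100 kb of the locus the running median takes in the raised locus bins, which can lower their folds. With the ends of III all 40 surrounding bins had 0.797 to 1.32, with no peak at the locus.

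**Figure D2:**
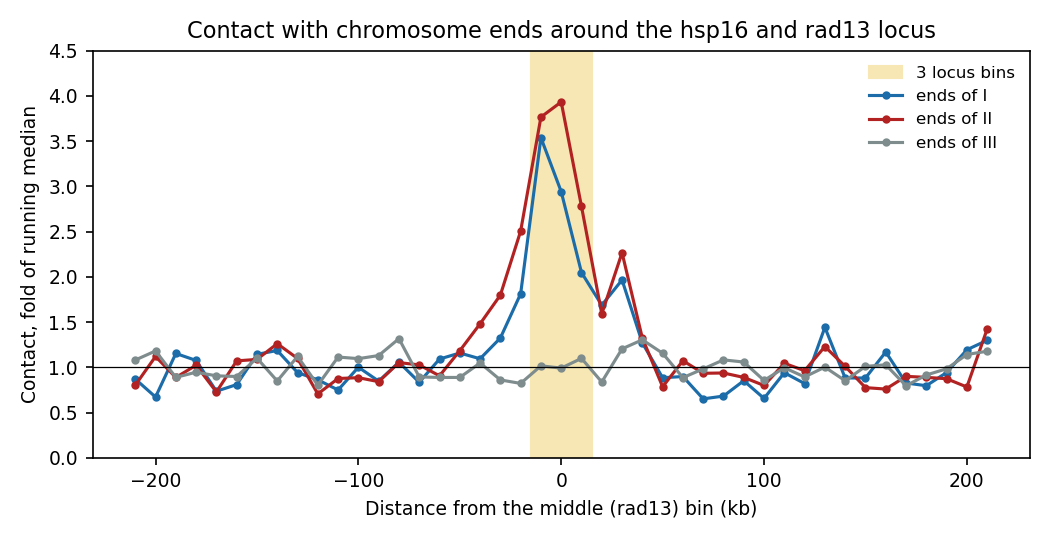
Fold of contact with both ends of I, II and III (vertical axis) against distance from the rad13 bin in kb (horizontal axis), for the 3 locus bins (shaded) and 20 bins on each side. The curves for I and II peak at 3.54 and 3.93 in the shaded bins and have a lower rise at 30 kb, while that for III stays near 1.

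Reads, cutting sites and base composition of the locus were like those of its surroundings. The 40 surrounding bins held 28614 to 89311 reads (median 58941), 2 to 10 HindIII sites (median 5.5) and 60.3 to 66.0% A and T (median 63.8). The hsp16, rad13 and last bin had 64.9, 65.5 and 62.9% A and T. The part of site number, reads and base composition in the contacts was not tested.

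The raised contact ran inward from the ends of I and II for 150 kb or more. Here the signal of the 3 bins was divided by that of 32 flanking bins, which lie over 50 and up to 200 kb away on either side. With the left end of I the fold was 4.77 (4.42 to 5.15, 679 reads) from 50 to 100 kb, 1.87 (1.69 to 2.07) from 100 to 150 kb and 0.968 (0.876 to 1.07) from 200 to 300 kb. The right end of I had 3.95 (3.63 to 4.30), 2.70 (2.44 to 2.99) and 0.971 (0.878 to 1.07) at the same distances. From 100 to 150 kb the fold was thus higher at the right end of I than at the left, with intervals that do not overlap. From 150 to 200 kb the left end had 1.32 (1.17 to 1.48) and the right end 1.43 (1.27 to 1.61). Those intervals overlap and lie above 1, so the reach did not differ clearly.

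At the left end of II the fold was 4.37 (4.06 to 4.70, 747 reads) from 50 to 100 kb and 3.88 (3.56 to 4.23) from 100 to 150 kb. It was still 1.37 (1.28 to 1.47) from 200 to 300 kb and 1.38 (1.28 to 1.48) from 300 to 400 kb, where the arg7 bin lies. The right end of II had 8.25 (6.47 to 10.4) in its outermost bin, from 73 reads. It then had 3.81 (3.51 to 4.12) from 50 to 100 kb and 2.01 (1.82 to 2.22) from 100 to 150 kb. From 200 to 300 kb it had 1.18 (1.09 to 1.28). Of the 5 bins of the window at the right end of II the outermost stood apart, as the other 4 had 3.96 to 4.57. It shares 71.7% of its 30-base stretches with the ends of other chromosomes, so reads there could not all be placed with certainty. Leaving out the end bins that share at least 50% gave 2.74 with the ends of I and 3.34 with the ends of II.

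**Figure D3:**
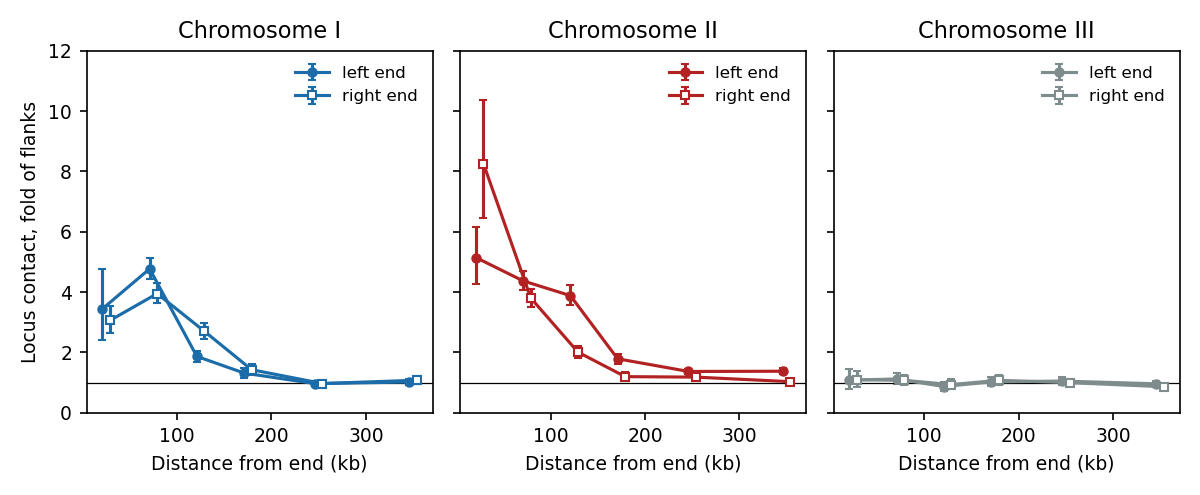
Signal of the 3 locus bins as fold of 32 flanking bins (vertical axis) by distance from each chromosome end in kb (horizontal axis), with 95% Poisson intervals. From 50 to 100 kb the 4 ends of I and II lie between 3.81 and 4.77, and the ends of III lie near 1 at every distance.

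Away from the ends, chromosome I held another stretch with raised contact, around mei2, the gene for the RNA-binding protein that starts meiosis. Chromosome I was divided into 56 stretches of 100 kb, whose folds over the flanking bins ranged from 0.835 to 4.55 with a median of 1.02. Of these, 7 reached 1.5, and 4 of them lie within 200 kb of an end. The stretch from 4500001 to 4600000 had 2.05 (1.91 to 2.19, 809 reads), the next had 1.55 (1.44 to 1.67), and that from 2300001 to 2400000 had 1.51 (1.39 to 1.63, 623 reads). All 3 locus bins took part. With the first stretch the hsp16 bin shared a mean signal of 29.5 per pair of bins, the rad13 bin 28.6 and the last bin 22.7, while the 32 flanking bins had 9.66 to 16.0. With the stretch from 2300001 the 3 bins had 19.2, 20.6 and 20.7, above the flanking bins at 10.7 to 15.3. On chromosome III none of 24 stretches reached 1.5, and they ranged from 0.860 to 1.19.

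**Figure D4:**
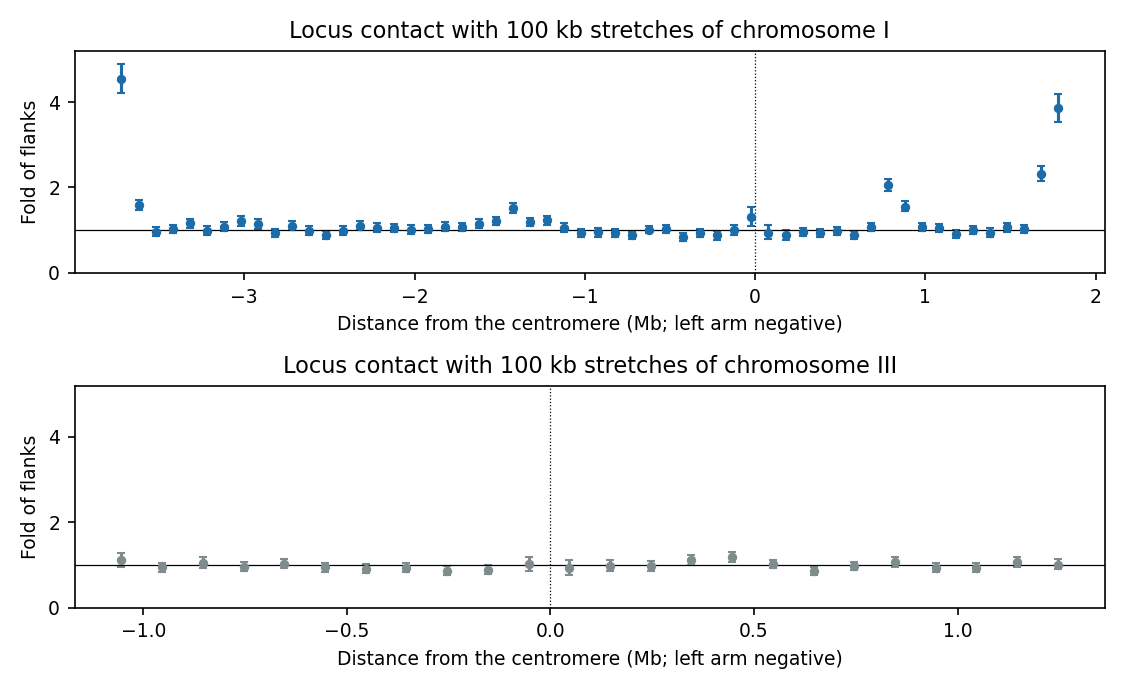
Signal of the locus as fold of the 32 flanking bins (vertical axis) for 100 kb stretches of I (upper panel) and III (lower panel) by distance from the centromere in Mb (horizontal axis), with 95% Poisson intervals. Besides the ends of I, the stretch that starts at 4500001 stands at 2.05, and no stretch of III passes 1.19.

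Partner bins were ranked by contact relative to bins at the same distances from the centromeres, and of bins within 2 bins of each other only the highest was kept. Among 670 arm bins of I and III, with a median ratio of 1.06, the highest was the bin of mei2 and omt2 at 2.65 (2.16 to 3.22), from 39, 34 and 28 reads of the 3 locus bins. The flanking bins had 0.977 with it. The bin of rhp41 and gid8 followed at 2.58 (2.09 to 3.17, 93 reads), and rhp41 encodes a damage recognition protein of the repair pathway in which Rad13 cuts. Next in this merged order came the bins of slm1 and zds1 at 2.18 (67 reads) and of mmd1 and asc1 at 1.94 (88 reads), and on the other arm that of mix17 and the citrate synthase gene cit1 at 1.79 (1.32 to 2.36, 49 reads). The first 4 of these lie in 130 kb of one arm. The 15 bins from 4500001 to 4640001 had ratios of 1.52 to 2.65, beside 0.896 to 1.15 for the flanking bins, so the raised contact covered all 15. The mei2 bin itself met the ends of II at 2.34-fold, and it was the only one of the 20 bins from 4500001 to 4690001 to reach 2-fold.

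Across bins of I and III, the profile of the locus was most like that of a block near the left end of its own chromosome. Likeness is Pearson's r over 776 bins of the contact relative to expectation, for 349 candidate bins of II with a median r of -0.02. The bins share the library and the correction, and r is given as a description. The bin of arg7, the gene for argininosuccinate lyase, and dal52 had 0.61, and its neighbours with adh8 and sbp1, mug89 and nrs1, car1 and gor2, and bcp1 and csc3 had 0.56, 0.54, 0.53 and 0.48. Without the end windows the 5 values were 0.58, 0.51, 0.50, 0.48 and 0.44. This left 756 of the 776 bins, among them bins further in from the ends of I, where contact was raised too. Likeness apart from the ends was therefore not tested. The locus also met the arg7 bin itself, at 1.94 times the flanking bins (1.57 to 2.37, 94 reads).

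The arg7 bin met the left end of I at 2.57-fold (2.29 to 2.86) and the right end at 1.64 (1.39 to 1.93), folds below those of the hsp16 bin. In reads it had more, 324 and 148 against 271 and 127. Its fold is over neighbours that were raised too, as bins 300001 and 320001 had 1.97 and 1.83 with both ends of I. Its folds with the ends of III, 1.01 and 1.21, were near 1 as at the locus. The mat3 bin, a silent mating-type cassette 540 kb from the locus, differed more. It met the right end of I at 8.78-fold (8.09 to 9.53) and the left end at 2.66 (2.14 to 3.28), the reverse of the order at the locus. It also met centromeres I and III at 2.77-fold (395 reads), where the locus had 1.14 (0.977 to 1.33). Like the locus, the mat3 bin was raised with the ends of II, at 2.20 on the left and 2.18 on the right. With the ends of III it had 0.777 (0.493 to 1.17) and 0.953 (0.616 to 1.41).

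Within chromosome II the locus had no raised contact with the mating-type region. Relative to the mean at the same separation, contact with the mat3 bin was 0.976 (0.784 to 1.20, 89 reads). By bin it was 1.03 for hsp16, 0.709 for rad13 and 1.19 for syf2 and smf1, from 35, 18 and 36 reads, with intervals that all include 1. The mating-type bins together, from 2090001 to 2150001, had 0.896 (0.829 to 0.966, 662 reads). Of these, the bin of the mat1 cassette had 1.32 times the level of the flanking bins (1.02 to 1.67, 68 reads).

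Close by, the 3 bins met each other at 0.889 of the mean at the same separation (0.872 to 0.905, 11017 reads). The 120 pairs with bins within 200 kb count each pair among the 3 locus bins from both sides. These 120 ranged from 0.787 to 1.28 with a median of 0.964, and 75 were under 1. Contact was 0.928 (0.919 to 0.938) on the centromere side and 0.993 (0.983 to 1.00) on the end side. The 3 bins met bin 2700001, the other local peak of contact with the ends, at 1.14 (1.12 to 1.17, 6483 reads), and bin 2650001 at 0.938 (0.917 to 0.959). Chromosome II took 81.4, 81.1 and 80.5% of the signal of the 3 bins, within 1 SD of the arm mean of 81.6% (SD 2.11).

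On the corrected map with a window of 50 kb, no border lay in the locus. Borders are dips of contact across a bin within 50 kb. Their depth, at least 0.1 on the log2 scale, is measured below the higher of the flanking maxima, so the other side can be shallower. The map had 203, with a median depth of 0.27, and 8 lay within 200 kb. The log2 insulation of the 3 bins was -0.03 to 0.01, near the level of the arm. The nearest borders were shallow. That at 2650001, with prp17 and fab1, was 0.14 deep, rank 180 of 203, and that at 2710001, with erb1 and pxl1, was 0.21 deep, rank 135. On its shallower side the border at 2650001 was only 0.07 deep. The nearest border depended on the setting. Without the correction it was at 2660001, the hsp16 bin, and with an insulation window of 100 kb or a least depth of 0.2 it was at 2710001.

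Further out, the deepest border was at 2550001, with gas2 and tri1, at 0.39 and rank 45. Those at 2750001, with sfc3 and rrn7, and at 2480001, with nak1 and rga5, were each 0.32 deep. The other 3 were 0.16 deep at 2610001 (mrs1, pof2), 0.22 at 2770001 (exo5, aps2) and 0.30 at 2830001 (sen34, ppm2). All 8 border bins hold at least 1 convergent gene pair, which 81.4% of arm bins of II also hold. The locus bins hold 1, 0 and 2.

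**Figure D5:**
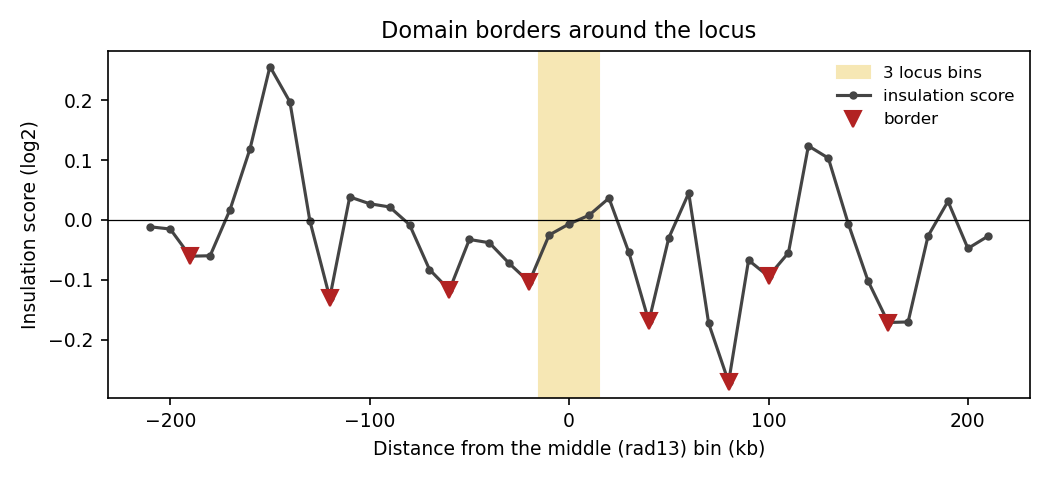
Log2 insulation (vertical axis) against distance from the rad13 bin in kb (horizontal axis), with the 8 borders marked and the locus shaded. The locus bins lie at -0.03 to 0.01, between the border at -20 kb (0.14 deep) and that at 40 kb (0.21 deep).

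Pathway lists were examined for hsp16 and rad13 only, and only for genes in arm bins. The folds of both genes with the ends of I chose the locus, so their place at the top of each list was given by the choice and is read as nothing more. Each list median and count takes in the chosen gene, so it is not independent of the choice. Of 20 heat shock genes listed, 18 were found and 13 lay in arm bins, with a median fold of 1.04, beside 0.993 over all 1068 arm bins. That median is 0.974 on reads without the correction. Besides hsp16 no gene of the 13 reached 2-fold, as 1.12% of all arm bins did, and hsp3105, on chromosome I itself, had 1.54 (1.17 to 1.99, 58 reads). The lowest was bip1, the gene for a chaperone of the endoplasmic reticulum, at 0.781, and 6 were under 1, as were 51.4% of arm bins.

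Of 17 excision repair genes, all found, 13 lay in arm bins and had a median of 1.17, rad13 included. They also include swi10, at 1.27 (1.06 to 1.51), in bin 2710001, which is 40 kb from the rad13 bin. Besides rad13, at 2.94, none reached 2-fold, beside 1.12% of all arm bins. The gene rhp23, which encodes a partner of Rhp41, had 1.57 (1.34 to 1.84, 157 reads). The gene rhp41, on chromosome I itself, had 1.49 (1.36 to 1.63, 496 reads). The lowest was ssl1, for a subunit of the repair and transcription factor TFIIH, at 0.742. Of the 13, 5 were under 1, beside 51.4% of all arm bins. These lists describe positions of genes, and no RNA was measured.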

How the data were processed

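Contacts were measured by Hi-C with HindIII and biotin fill-in in 2 biological replicates of sap1-1, which form 1 group, and 1 map was analysed. Its values are a contact signal per pair of 10 kb bins that the authors corrected iteratively with the diagonal kept, per the file headers. The submitters' processing notes name Bowtie2 2.1.0 and the build ASM294v2. The header's tag R1 may mean replicate 1 alone, and whether the deposited map pools both replicates is not given in the sources used here. The correction evens out the sum of every bin, so differences in total contact are lost.

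Reads per pair were recovered from the corrected signal as whole multiples of 1 value per pair of bins. They came to 99.9% of the header's 37571192, and 99.5% of values were within 0.05 of whole. They give the Poisson intervals, and reads made by PCR are not independent molecules. With 1 map no test across samples was possible, so ranks and intervals describe this map. Fold is the corrected signal with the outermost 5 bins of an end, or within 50 kb of a centromere, over the running median of other bins of the same arm within 100 kb.

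Genes and sequences are from RefSeq, named there ASM294v3, with the chromosome lengths of the map. Genes were named by rule: the members, up to 2 genes nearest the middle of each border, partner or like bin, the list genes at 1.5-fold or more and the highest and lowest, and mating-type genes. Genes of neighbouring and threshold bins were chosen for naming once their values had been seen. The members and lists were chosen with earlier results of these data known. Computing used SciPy 1.17.1 and NumPy 2.4.6 under Python 3.11.15, with pandas 2.3.3, Biopython 1.88 and matplotlib 3.10.9, and the steps were tested on simulated data. Alternatives changed the correction, windows, running median, end bins, separation mean, insulation and depth of borders.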

Additional observations from a re-analysis of the deposited data

How the results depend on the processing

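Of 41 values under alternatives, 25 stayed within their allowance and 16 moved further. The allowance was the counting error, 1.5 times for a count, and 1 SD of the folds among genes for a list median. That SD is no error of the median and takes in hsp16 or rad13. For heat shock genes it spans 0.317 to 1.76, so a list median staying within it shows little. No fold whose interval lay away from 1 crossed it, but without the correction the fold with the ends of III (1.04) became 0.951 and the heat shock median (1.04) 0.974. For the ends of I the fold (2.84) was 2.54 on reads without the correction, 2.60 with windows of 2 bins, 2.45 with 10 bins, 3.83 with a running median within 200 kb and 3.06 without the 3 locus bins in it. For the ends of II it (3.49) was 2.69, 3.98, 2.84 and 4.35 under the first 4 of these. All stayed above 2. The fold with the ends of III was 0.951 to 1.10 throughout. That with the centromeres of I and III was 2.56 in the 20 kb window, which leaves 1 bin. Without the correction, contact with mat3 was 0.729, 13 borders lay within 200 kb, and the nearest, at bin 2660001, was 0.25 deep. An insulation window of 100 kb left 5 borders, the nearest at 2710001, one of 30 kb gave the nearest a depth of 0.27, and a least depth of 0.2 made it that at 2710001, 0.21 deep. The statement that no border lay in the locus therefore depends on the correction. The cause was not tested. No paired analysis was possible because there is 1 map, which may hold 1 replicate or both, and no replicate could be left out. Depth limits single pairs of bins most, where counts are under 100.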

Other observations

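On chromosome II, 219 bins more than 200 kb away and outside the end regions were ranked as partners. The candidates for likeness above were 349, so not every such bin was ranked. The 5 bins named here all lie on the right arm. The arg7 bin, on the left arm, had 1.94 times the flanking bins (1.57 to 2.37, 94 reads). These ratios are to the same separation, unlike those for mei2, so the levels are not compared. With a median ratio of 1.01, the highest of the 219 was the bin of mpi1 and mrm2 at 1.62 (1.32 to 1.97, 100 reads). The flanking bins had 1.30 with it. The bins of naa35 and prp24, of arg5 and alg5, and of pku80 and npr3 each had 1.48, and that of sog2 and mcs4 had 1.46. Of these, the bin of pku80, which encodes a subunit of the Ku complex that binds DNA ends and telomeres, and npr3 had the lowest value with the flanking bins, 0.960. That bin lies 200 to 300 kb from the right end of II, where the locus had 1.18 (1.09 to 1.28) over the flanking bins. The part of this position in its ratio was not tested.

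The signal within each locus bin, relative to the mean of the diagonal, was 0.921 for hsp16, 0.619 for rad13 and 0.627 for syf2 and smf1. These bins have 9, 3 and 3 HindIII sites, and the part of site number in these values was not tested.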
